A study of Rattus norvegicus with 3 samples.

Results

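The 65 genes described here encode enzymes and factors that break down, build and sort fatty acids, measured in RNA of rat adrenal medulla. They were chosen by name, from the platform annotation, as the genes whose symbol begins with Acad, Acsl, Acox, Acot, Cpt1, Cpt2, Elovl, Fads or Hadh, or with Pex and a digit, together with Acaca, Acacb, Acly, Fasn, Scd, Me1, Eci1, Eci2, Decr1 and Crat. They are 65 of 14217 genes with a probe set of their own, and 87 probe sets represent them. Each gene is given by the probe set with the highest mean over the 7-day array and 1-day array b, and 4 further probe sets whose annotation names several genes, such as Acot1 with Acot2, were left out.

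Chromaffin cells of the adrenal medulla, at the core of the gland, secrete adrenaline and noradrenaline. Rats were kept in the cold for 1 day (2 arrays, replicates a and b) or for 7 days (1 array), so cold is shared by all 3 arrays and no array of rats outside the cold was analysed here. Strain, sex and age are not given in the labels, nor whether arrays a and b stand for different animals, so their spread may be technical only. The labels place the words Multiple Organs before the tissue, taken here for a project name, which is a guess. Of the listed chromaffin cell markers 9 of 10 were measured and all 9 passed the filter on low values, and of the adrenal cortex markers 12 of 16 were measured and 10 passed, so RNA of both kinds of cell was on the arrays.

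Fatty acids enter metabolism once acyl-CoA synthetases join them to coenzyme A. The carnitine shuttle brings long chains into the mitochondrial matrix, where dehydrogenases, hydratases and thiolases shorten them step by step. Very long and branched chains are first shortened in peroxisomes, whose enzymes are imported by proteins called peroxins. New fatty acids are made in the cytosol from citrate and then lengthened by elongases and given double bonds by desaturases. In the adrenal gland, fatty acids are a fuel, form the esters in which cortex cells store cholesterol, and include much arachidonic acid.

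Most of these genes read nearly alike on the 7-day array and 1-day array b, and the differences ran in opposite directions within the group. The desaturase genes Fads1 and Fads2, the elongase gene Elovl6 and Me1, which supplies reducing power for fatty acid synthesis, read higher on the 7-day array than on both 1-day arrays. Acsl5 and Acsl6, of fatty acid activation, and Elovl2 read lower than on both, although centring each array on its median puts them above array a. Of mitochondrial fatty acid oxidation, Acadm, Hadha and Hadhb stood 0.08 to 0.15 (log2) above 1-day array b, and at -0.10 to -0.03 relative to it with that centring. All 12 measured markers of the adrenal cortex also read higher than on array b as scaled, though the dim Nr0b1 turned lower with quantile normalisation. In a piece of tissue a larger share of one kind of cell and more RNA per cell cannot be told apart. No member passed the test across all genes.

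The 3 arrays were not alike in quality, which bears on every value below. For beta-actin, the 3′ probe set read 231 times the 5′ one on 1-day array a, against 6.11 times on array b and 8.87 times after 7 days. Over the 65 members, 30 differed at least 2-fold within the 1-day pair, but only 6 when the 7-day array was set against array b. The log2(intensity + 16) scale used here and throughout understates the differences of dim probe sets. Of all genes, 9.98% read at least 2-fold higher and 4.68% lower on the 7-day array than on array b. Within the 1-day pair that share was not computed over all genes. Over all 31042 gene probe sets the Spearman rank correlation was 0.66 within the 1-day pair and 0.94 between array b and the 7-day array. Over the members it was 0.86 and 0.98. The members as a whole read lower on 1-day array a than on b, with a median of -0.43 against 0.30 over all genes, and 43 of 65 were lower there. Values against each 1-day array are therefore given side by side. Below, 3 intensities in a row are given in the order 1-day a, 1-day b, 7-day. The part of RNA quality in the results was not tested.

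**Figure D1:**
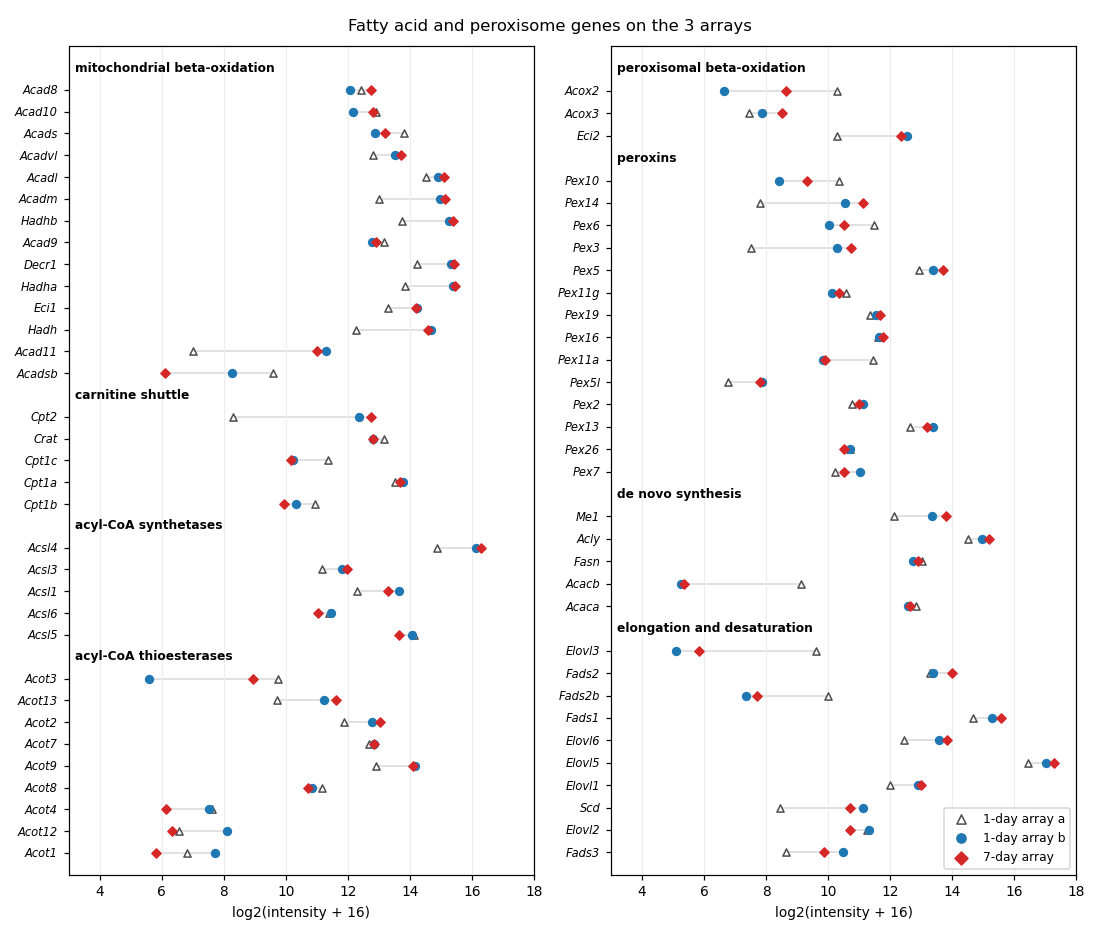
Level of each of the 65 genes, as log2(intensity + 16) on the horizontal axis, on 1-day array a (open triangles), 1-day array b (circles) and the 7-day array (diamonds), by subgroup. Circles and diamonds lie close together for most genes, while 30 triangles lie at least 1 log2 unit from the circle.

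The comparison of 7 days with 1 day asked which genes differ with the length of the stay in the cold. Of the 65 members, 52 passed the filter on low values (a mean log2 value over the 3 arrays of at least 9.60, an intensity of 759) and were tested with limma together with all 15521 probe sets that passed. Limma's adjusted p was 1.00 for each of the 52, so 0 were called, beside 0 (0%) of all probe sets tested. At an unadjusted p under 0.05 in limma there was 1 member, Cpt2, against 70 of the 15521. The fit had 1 residual degree of freedom, from the 1-day pair, and 1 array at 7 days. Limma drew the spread wholly from the trend over all probe sets of like intensity. The SE values below are therefore not the measured error of single genes. They were 0.96 for Fads2 and 0.95 for Cpt2, whose 1-day array a stood at -0.12 and -4.07 relative to array b.

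By position, 25 members read above both 1-day arrays, 38.5% of them, against 22.7% of all genes, and 12 read below both, 18.5%, against 25.8%. With median centring of each array the counts were 21 and 4. That step lowers array a for every gene relative to the other arrays, and the shares of all genes with it are not given here. The counts with it are therefore not read as a result about the members. Against 1-day array b alone 39 of 65 were higher (60.0%) beside 53.8% of all genes, and the median difference was 0.11 beside 0.04. With median centring, a step that moves the median of all genes from 0.04 to -0.15, the members' median was -0.08. In that setting 24 of 65 were higher (36.9%), beside 35.5% of all genes. Relative to the median of all genes, the members' median was 0.07 to 0.11 over the 6 ways of scaling and pseudocount tried. A pseudocount cannot change which array reads higher, so a sign kept over the 6 settings is partly so by construction.

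Large differences were found in dim genes. Against 1-day array b, 9 members (13.8%) read higher by 1.5-fold or more, beside 16.6% of all genes, and 6 (9.23%) read lower by as much, beside 8.84%. These shares are close to those of all genes, but a smaller part of all genes passed the filter (9252 of 14217, against 52 of 65 members). Among those that passed, 4 of 52 members read higher by 1.5-fold or more, beside 370 of 9252 genes. Lower by as much were 2 of 52, beside 308 of 9252. At 2-fold there were 2 higher (Acot3 and Acox2) and 4 lower (Acadsb, Acot1, Acot4 and Acot12), beside 9.98% and 4.68% of all genes, and 0 of these 6 passed the filter on low values. Above both 1-day arrays by more than the gap between those arrays were 3 members, Fads2, Pex16 and Acox3, against 4.81% of all genes. Below both by more than that gap were 7, namely Elovl2, Acsl5, Acsl6, Pex26, Acadsb, Acot1 and Acot4, against 7.16%. This last rule was added after the values were seen, and which genes meet it depends on the scaling. With quantile normalisation 5 members lay above and 1 below, beside 6.20% and 7.46% of all genes. With median centring there were 1 and 1, beside 4.92% and 6.17%. With a trend on intensity removed there were 6 and 4, beside 7.07% and 8.51%. Acadsb was the only member that met the rule on the same side in all 6 settings, while Fads2 met it in none of these 3.

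**Figure D2:**
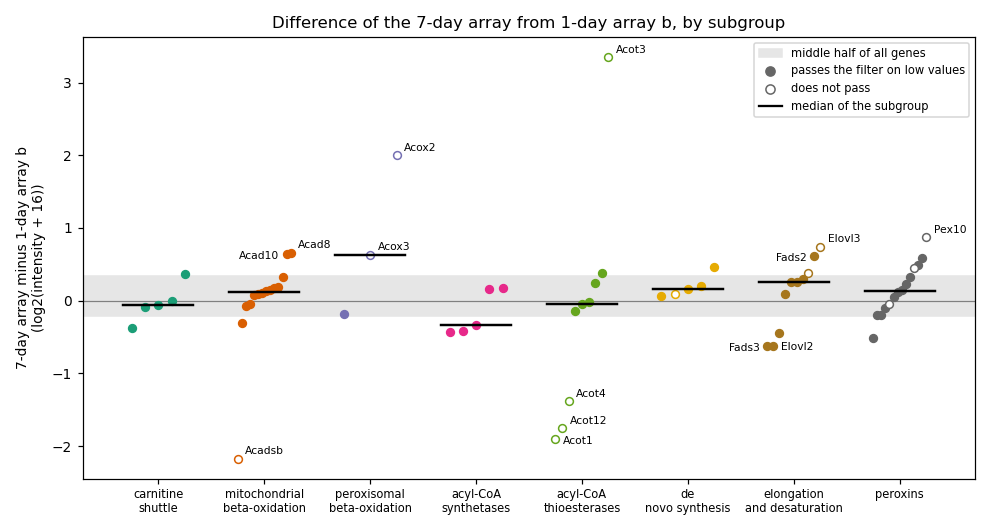
Difference of the 7-day array from 1-day array b for each gene (vertical axis, log2(intensity + 16)), by subgroup, with the subgroup's median as a bar and the middle 50% of all genes (-0.21 to 0.34) as a grey band. Filled points passed the filter on low values, and the 6 genes at least 1 log2 unit from 0 are all open points.

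Among members that passed the filter, elongation and desaturation held the lowest values against 1-day array b, those of Elovl2 and Fads3, and the third highest, that of Fads2. Of 10 genes, 7 read higher on the 7-day array than on 1-day array b and 3 lower. The median was 0.26 against array b (0.08 with median centring, 0.11 with quantile normalisation) and 0.87 against 1-day array a. Among the 8 that passed the filter, 5 read higher than array b and 3 lower, with a median of 0.18. Relative to the median of all genes the subgroup stood at 0.11 to 0.23 over the 6 settings. Above both 1-day arrays were 5 of 10, and below both 1 (4 and 0 with median centring, and 2 below with quantile normalisation).

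Fads2, the delta-6 desaturase that starts the making of long polyunsaturated fatty acids, read 9856 and 10692 on the 1-day arrays a and b, and 16377 after 7 days. The 1-day arrays lay 0.12 apart and the 7-day array 0.61 above the nearer of them. Limma's estimate for Fads2 was 0.67 ± 0.96 (SE, 3 arrays), with an adjusted p of 1.00. Fads1, the delta-5 desaturase of the same pathway, read 26027, 39849 and 49186 in that order, 0.30 above 1-day array b. Both desaturases kept a higher value than 1-day array b in each of the 6 settings, Fads1 between 0.12 and 0.30 and Fads2 between 0.43 and 0.63.

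Elovl6, which lengthens the products of fatty acid synthase, read 5546, 12081 and 14500, and a second probe set of the gene also read higher at 7 days (0.26 and 0.43 above 1-day array b). Elovl5, which lengthens polyunsaturated chains, read 89535, 132083 and 158209, 0.26 above array b, but its second probe set stood at -0.26. Elovl1, an elongase of saturated very long chains, stood at 0.10 and turned to -0.08 with median centring.

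Elovl2, Fads3 and Scd read lower on the 7-day array than on 1-day array b in each of the 6 settings. Elovl2, which extends the longest polyunsaturated chains, read 2441, 2534 and 1645, with the 1-day arrays 0.05 apart and the 7-day array 0.57 below the nearer of them, though above array a with median centring. Limma's estimate was -0.59 ± 0.96 (SE, 3 arrays), with an adjusted p of 1.00. Fads3 read 386, 1422 and 918, and Scd, the stearoyl-CoA desaturase that makes oleate, 331, 2242 and 1638. Fads3 and Scd thus stood 0.62 and 0.45 below array b but above array a, and their 7-day values lie within the spread of the 1-day pair. Elovl3 (767, 18 and 41) and Fads2b (1002, 147 and 195) were dim.

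In de novo synthesis all 5 genes read higher on the 7-day array than on 1-day array b, by 0.06 to 0.46, with a median of 0.16. With median centring that median was -0.02, and Fasn, Acacb and Acaca turned negative. Against 1-day array a the median was -0.11, and 1.10 with median centring. Me1, the malic enzyme that makes NADPH, read 4409, 10302 and 14200, and its second probe set stood 0.38 above array b, next to 0.46 for the first. Acly, which splits citrate into acetyl-CoA, read 23108, 32127 and 36906. Both genes lay above both 1-day arrays and kept a higher value than array b in the 6 settings, though that of Acly was 0.02 with median centring.

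Fasn, the fatty acid synthase, read 8258 and 6870 on the 1-day arrays a and b, and 7672 after 7 days, so the 7-day array lay between the 1-day pair. A second Fasn probe set pointed the other way, at -0.26 relative to array b. Acaca, the acetyl-CoA carboxylase of fatty acid synthesis, also lay between, at 7337, 6135 and 6407. Acacb, the carboxylase that restrains the carnitine shuttle, was dim on array b and after 7 days (23 and 25), and read 549 on array a.

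For the genes of synthesis and desaturation that stood above both 1-day arrays, the promoter stretch just before the annotated start is shown, to set their letters beside the values. The sequences are from RefSeq (build GRCr8), cover 150 bases 5′ to 3′ on the gene's strand, and have CCAAT boxes and GC boxes (GGGCGG), of either strand, in capitals. Fads1 lies on the plus strand (chr1:216252542-216252691), Fads2 on the minus strand of the same chromosome (chr1:216172034-216172183), Me1 on the minus strand (chr8:96540245-96540394) and Acly on the minus strand (chr10:85963632-85963781).
Fads1: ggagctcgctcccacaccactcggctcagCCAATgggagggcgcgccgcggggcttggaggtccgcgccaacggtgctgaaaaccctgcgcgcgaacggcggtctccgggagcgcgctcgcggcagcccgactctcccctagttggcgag
Fads2: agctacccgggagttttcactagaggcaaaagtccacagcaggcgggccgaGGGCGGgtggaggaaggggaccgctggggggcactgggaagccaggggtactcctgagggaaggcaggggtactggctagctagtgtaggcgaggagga
Me1: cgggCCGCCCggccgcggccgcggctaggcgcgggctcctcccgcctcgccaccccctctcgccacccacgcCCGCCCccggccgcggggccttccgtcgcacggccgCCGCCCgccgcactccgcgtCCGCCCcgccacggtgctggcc
Acly: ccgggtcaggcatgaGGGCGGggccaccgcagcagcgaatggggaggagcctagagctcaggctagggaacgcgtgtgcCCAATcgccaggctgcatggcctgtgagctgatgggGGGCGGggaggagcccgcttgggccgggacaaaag
Fads1 has 1 CCAAT box and 0 GC boxes in this stretch, Fads2 has 0 and 1, Me1 0 and 4, and Acly 1 and 2, so the 4 genes share neither motif. These motifs were looked for after the values had been seen.

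Promoters of 55 members were matched (57 promoters of 300 bases, 250 before and 50 after the start). Of these, 22 (38.6%) hold a CCAAT box and 39 (68.4%) a GC box, against 37.5% and 33.1% of all 33469 promoters, which also include genes that code for no protein. A sterol regulatory element (TCACNCCAC, N any base, both strands), the kind of site that Srebf proteins bind, is in 1 of the 57 and in 1.12% of all promoters. The PPAR response element, searched on both strands as 2 copies of AGGTCA in the same direction with 1 base between them, is in 0 of the 57 and in 0.0538% of all promoters, so almost no window of this length holds those letters. The single sterol element lies in Acot13, a thioesterase gene, on the plus strand at chr17:40668221-40668289, and is shown in capitals because it was the only match among the members.
Acot13: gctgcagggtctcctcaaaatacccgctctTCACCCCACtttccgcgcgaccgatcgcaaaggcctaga
On the arrays Acot13 read 817, 2392 and 3132, 0.39 above 1-day array b.

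Mitochondrial beta-oxidation was the largest enzyme subgroup, and its core enzymes read nearly alike after 7 days and on 1-day array b. Of 14 genes, 10 read higher than array b and 4 lower, with a median of 0.12, which was -0.06 with median centring and 0.08 to 0.12 above the median of all genes over the 6 settings. Against 1-day array a the median was 0.89, and 7 of 14 lay above both 1-day arrays (4 with median centring) and 1 below both.

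Acadm, Acadl, Acadvl and Acads, the dehydrogenases of medium, long, very long and short chains, stood 0.15, 0.18, 0.19 and 0.32 above 1-day array b. Acadm read 8106, 32161 and 35646, Acadl 23507, 30714 and 34687, and Acadvl 7088, 11678 and 13316, each highest on the 7-day array. Acads read 14262, 7439 and 9311, highest on 1-day array a. With median centring Acadm and Acadl turned to -0.03 and -0.01 relative to array b, and Acadvl and Acads stayed above 0.

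Hadha and Hadhb, the subunits of the trifunctional protein that carries out the later steps on long chains, had like differences. Hadha read 14517, 42468 and 44869, and Hadhb 13804, 39301 and 43007, which is 0.08 and 0.13 above 1-day array b and 1.63 and 1.64 above array a. Both turned negative relative to array b with median centring (-0.10 and -0.05). Hadh, which acts on shorter chains, read 4937, 26038 and 24713. Decr1 (19068, 41147 and 43800) and Eci1 (10114, 19236 and 18606), which handle the double bonds of unsaturated chains, stood at 0.09 (-0.09 with median centring) and -0.05. For each of these 9 genes the 7-day array lay nearer to array b than array a did. Both further Hadha probe sets were dim on array b, and stood at 0.84 and 0.94 relative to it. They read 1542, 452 and 824, and 1313, 154 and 310, so their 7-day values lay inside the 1-day pair. The latter did not pass the filter.

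The largest differences of the subgroup were in other acyl-CoA dehydrogenases. Acad8, an enzyme of valine breakdown, read 5500, 4326 and 6854, above both 1-day arrays and 0.66 above array b. Acad10 read 7724, 4603 and 7168, 0.64 above array b but below array a. Acad11 read 114, 2516 and 2023, and stood at -0.31. Acad9, also known for its part in assembling respiratory complex I, stood at 0.11 (-0.08 with median centring). Acadsb, of isoleucine breakdown, read 755, 295 and 53, below both 1-day arrays, but at a level under the filter.

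In the carnitine shuttle 4 of 5 genes read lower on the 7-day array than on 1-day array b and 1 higher, with a median of -0.06 (-0.24 to -0.06 over the 6 settings). Against 1-day array a it was -0.36, and 3 of 5 lay below both 1-day arrays, but with median centring it was 0.85 and 0 of 5 did. Cpt1a, the liver form of the enzyme that commits fatty acids to oxidation, read 11642, 13901 and 13050. Its second probe set stood at 0.04 relative to array b, next to -0.09 for the first, so the direction is not settled. Cpt1b, the muscle form, read 1960, 1267 and 969, 0.38 below array b. Cpt1c, the form of nerve cells, read 2589, 1179 and 1129. Crat, the carnitine acetyltransferase, read 9223, 7202 and 7159 and turned from -0.01 to 0.04 with quantile normalisation.

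Cpt2, the enzyme at the inner mitochondrial membrane, was the exception, at 299, 5259 and 6781. Its 7-day value stood 0.37 above 1-day array b and 4.43 above array a. Limma's estimate of 2.40 ± 0.95 (SE, 3 arrays), with an unadjusted p of 0.0113 and an adjusted p of 1.00, averages these very unequal differences. Relative to array b, Cpt2 lay between 0.18 and 0.40 in the 6 settings.

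Acyl-CoA synthetases had the lowest median of the 8 subgroups against 1-day array b, -0.33, and -0.51 to -0.29 over the 6 settings. With all probe sets of a gene averaged, however, it was 0.09 and no longer the lowest. Against 1-day array a the median was 0.81, with Acsl4, Acsl3 and Acsl1 low there. Of 5 genes, 2 lay above both 1-day arrays and 2 below both, and 0 and 0 with median centring.

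Acsl5 read 17980, 17169 and 12734, 0.43 below array b and 0.50 below array a, with the 1-day arrays 0.07 apart. A second Acsl5 probe set read lower too, by 0.66 and 1.30. With median centring, Acsl5 and Acsl6 stayed below array b but turned to above array a. Acsl6, a form of the brain, read 2692, 2767 and 2064, with the 1-day arrays 0.04 apart and the 7-day array 0.38 below the nearer, but a second, dim probe set stood at 0.61 relative to array b. Acsl1 read 5041, 12709 and 10088, and 3 of 3 Acsl1 probe sets read lower than on array b, by 0.07 to 0.33. Acsl4, which prefers arachidonic acid and is abundant in steroid-making tissue, read 30100, 70871 and 80059. Its 0.18 above array b turned to -0.01 with median centring, as the 0.16 of Acsl3 turned to -0.02.

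Acyl-CoA thioesterases, which free fatty acids from coenzyme A, were split by level. The 5 genes that passed the filter stood between -0.15 and 0.39 relative to 1-day array b, while the 4 dim ones stood at 3.35 (Acot3), -1.39 (Acot4), -1.76 (Acot12) and -1.90 (Acot1). Acot3 read 850 on array a, so its 7-day value of 476 lay inside the 1-day pair. Over all 9 the median was -0.05. Against 1-day array a it was -0.20, but 1.01 with median centring and 0.58 with quantile normalisation. Acot2, the mitochondrial form, read 3780, 7014 and 8344, and 3 of 3 Acot2 probe sets read higher than on array b, 1 of them at -0.11 with median centring. Acot9, also mitochondrial, read 7619, 18231 and 17652. Acot8, of peroxisomes, read 2293, 1840 and 1662. Acot7, abundant in nerve cells, stood at -0.02, and at 0.92 on a further probe set that was highest on array a (3864, 493 and 950). Acot1 to Acot4 are close relatives in sequence, so their probe sets may share signal, and the low values of Acot1 (96, 193 and 40) and Acot4 (182, 169 and 55) are uncertain.

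Peroxisomal beta-oxidation was represented by 3 genes, of which 1 passed the filter. Eci2, an isomerase for unsaturated chains, read 1245, 5922 and 5211, 0.18 below array b. Acox2, the oxidase of branched chains and bile acid precursors, read 1241, 84 and 384, and Acox3 read 158, 220 and 350. The subgroup's median of 0.63 is the value of Acox3 and became 0.20 after quantile normalisation, and 0.23 once a trend on intensity was removed.

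Peroxins build peroxisomes and import their enzymes. Of 14 genes, 9 read higher than 1-day array b and 5 lower, with a median of 0.13 (-0.05 with median centring) that lay 0.10 to 0.17 above the median of all genes over the 6 settings. Against 1-day array a the median was 0.27, and 5 of 14 lay above both 1-day arrays and 1 below both, so the peroxins were close to the members as a whole.

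Among the genes of matrix protein import, Pex5, the receptor for most peroxisomal enzymes, read 7819, 10532 and 13199, 0.33 above array b and 0.75 above array a, and a second probe set, under the filter, stood at 0.35 relative to array b. Pex7, the receptor for the other import signal, went the opposite way relative to array b, at 1168, 2073 and 1442 (-0.52), which lies between the 1-day arrays. Pex14 and Pex13 form the docking site at the membrane. Pex14 read 207, 1468 and 2218, 0.59 above array b, and 3.33 above array a, with limma's estimate at 1.96 ± 2.16 (SE, 3 arrays) and an adjusted p of 1.00. Pex13 read 6339, 10614 and 9239, at -0.20.

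Pex2 and Pex10 are subunits of the ligase that recycles the receptors, and stood at -0.11 and 0.87, the latter on a dim probe set (1305, 329 and 617). Pex6 and Pex26, of the complex that pulls receptors back out, read 2851, 1022 and 1444, and 1653, 1663 and 1443. Pex26 thus lay 0.19 below 1-day arrays that were 0.01 apart, but it stood above array a with median centring (1.02), quantile normalisation (0.74) and the trend removed (0.46).

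Of the membrane protein import genes, Pex19 read 2602, 2955 and 3274, and Pex16 3071, 3165 and 3447, both above both 1-day arrays. Relative to array b they turned from 0.15 and 0.12 to -0.03 and -0.06 with median centring. Pex3, their partner, read 167, 1247 and 1702. Pex11a and Pex11g, of peroxisome division, stood at 0.05 (-0.13 with median centring) and 0.22, and a second, dim Pex11a probe set at -2.30. A further Pex16 probe set (2519, 312 and 984) stood at 1.61 relative to array b but below array a. Pex5l, a relative of Pex5 expressed in nerve cells, was dim (94, 216 and 209).

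**Figure D3:**
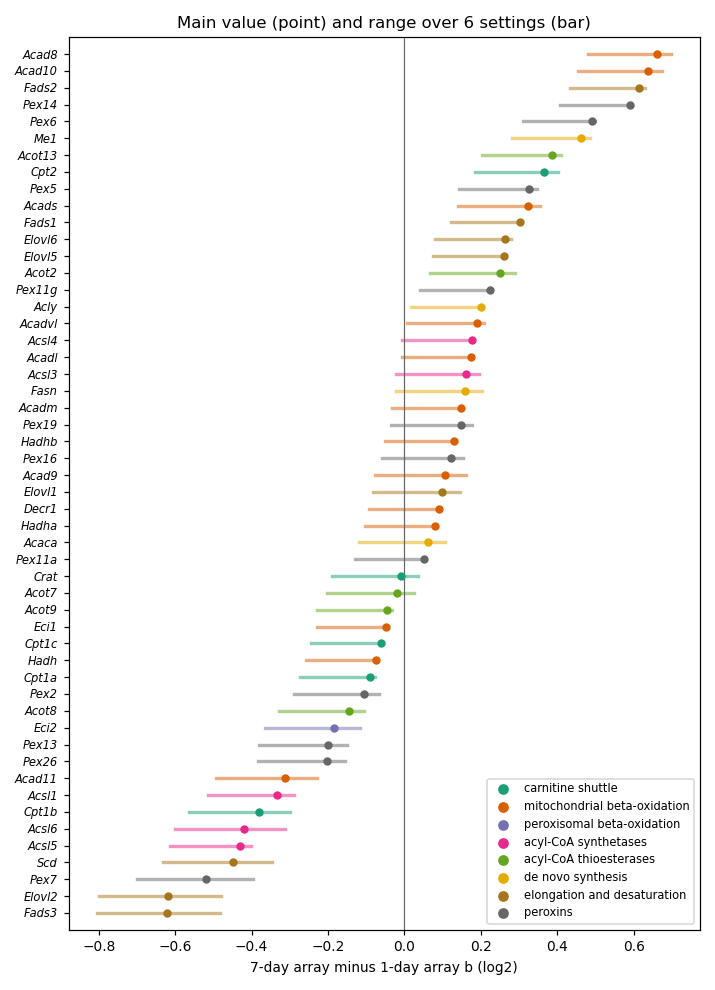
Difference of the 7-day array from 1-day array b (horizontal axis, log2) for the 52 genes that passed the filter, with the main value as a point and the range over the 6 settings of scaling and pseudocount as a bar. Bars of genes near the middle, such as Hadha, Hadhb and Acadm, cross 0, and those of Acad8, Acad10, Fads2 and Me1 at the top and Elovl2 and Fads3 at the bottom do not.

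Over these 6 settings, 47 of the 65 members kept the sign of their difference from 1-day array b, 23 of them higher and 24 lower, and 18 changed it. The pseudocounts cannot change a sign. Median centring lowers every difference from array b by the same amount, so it can turn only small positive values. A kept sign thus largely restates the size of the difference, and the same count over all genes is not given here. The sign changed in 6 of 14 mitochondrial beta-oxidation genes and in 3 of 5 genes of de novo synthesis, and was kept in 8 of 10 genes of elongation and desaturation.

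A second measure came from the 22 further probe sets of 19 members. Relative to 1-day array b, 13 of 22 had the sign of the gene's representative, and 8 of the 12 that passed the filter. Me1, Elovl6, Acsl5, Acsl1, Acot2, Pex2, Pex16 and Hadha were the genes whose further probe set passed and had the same sign. For Fasn, Elovl5, Cpt1a and Acot7 it had the other sign. The filter averages all 3 arrays, so a set bright mainly on array a can pass it. The passing sets of Pex16 (2519, 312 and 984), Hadha (1542, 452 and 824) and Acot7 (3864, 493 and 950) read under 759 on array b. Each of them was highest on array a, with the 7-day value inside the 1-day pair. Probe sets of a gene share the RNA sample and are no replicates.

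**Figure D4:**
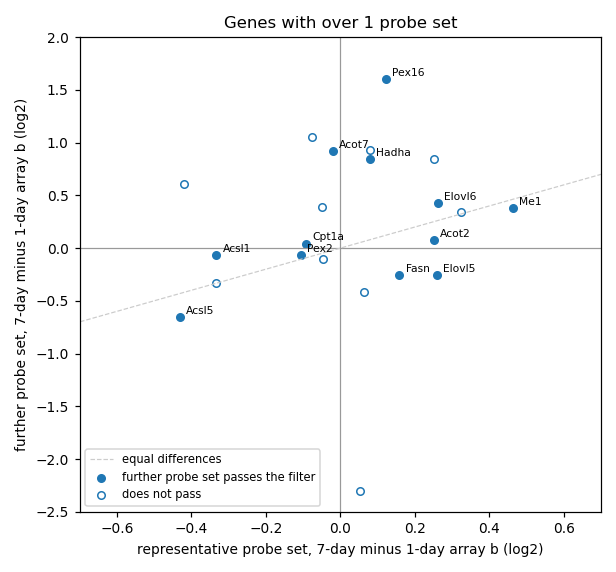
Difference of the 7-day array from 1-day array b (log2) on the further probe sets (vertical axis) against the representative probe set of the same gene (horizontal axis). Filled points passed the filter and are named, and of these 12 Fasn, Elovl5, Cpt1a and Acot7 lie in the quadrants of opposite sign.

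Other genes of these pathways, listed by their known roles, had medians close to 1-day array b, and in limma 0 genes of the 5 lists had an adjusted p under 0.05. Of 12 measured partners of mitochondrial oxidation, 10 read higher than 1-day array b (median 0.12), from Ech1 at -0.27 to Etfdh, which passes electrons from fatty acids to the respiratory chain, at 0.43 (1223, 8316 and 11246). Of 14 peroxisomal partners 8 read higher (median 0.04), and those passing the filter ran from Amacr at -0.37 to Phyh, of branched chain breakdown, at 0.37. Of 13 synthesis partners 8 read higher (median 0.06), from Hacd1 at -0.52 to Mcat, of mitochondrial fatty acid synthesis, at 0.32 among those passing the filter. Of 13 genes of uptake and lipid droplets 4 read higher (median -0.10). Those passing the filter ran from Plin2, which coats lipid droplets, at -0.39 to the fatty acid transporter gene Slc27a4 at 0.47. Beside the counts of these lists, 53.8% of all genes read higher than 1-day array b.

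Of 18 regulators, 13 of which passed the filter, 14 read higher than 1-day array b (median 0.12) and 9 lay above both 1-day arrays. Over all genes these shares were 53.8% and 22.7%. Insig1, which holds back Srebf activation, was the highest that passed the filter, at 21279, 38297 and 58509 (0.61 above array b). Mlxipl, a factor that switches on fatty acid synthesis in response to glucose, read 3937, 4625 and 6476 (0.48), and Srebf1, the sterol-regulated factor that drives the desaturase genes in liver, 494, 2453 and 2697 (0.14). Ppara and Ppargc1a, which drive fatty acid oxidation genes in other tissues, were dim. Ppara read 102, 34 and 43, and Ppargc1a 72, 12 and 324, above both 1-day arrays by the largest difference from array b in this list (3.62).

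Markers of other cells differed between the arrays too. All 12 measured adrenal cortex markers read higher on the 7-day array than on 1-day array b, by 0.29 to 0.72, and 7 of 12 lay above both 1-day arrays. The highest, Cyp17a1 (70.5, 66.0 and 118.9), and Nr0b1 did not pass the filter. With quantile normalisation Nr0b1 turned from 0.39 to -0.10, and the bright Hsd3b1 moved from 0.38 to 0.11. Their summed intensity was 2131195 on 1-day array a, 1268738 on array b and 1654601 after 7 days. Of 9 chromaffin cell markers 6 read higher than array b, with sums of 2382276, 1006275 and 1175641. The cortex makes, desaturates and stores fatty acids, and the part of cortex RNA in the values above was not tested.

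Fat and liver also express many of these genes. Of 7 fat cell markers 1 passed the filter, with sums of 9030, 4143 and 3330. The one that passed, Cfd (2196, 2976 and 2529), makes up most of the sums on array b and after 7 days. Relative to array b, 4 of the 7 read higher and 3 lower. Among the dim ones, the fat cell hormone gene Adipoq read 1450, 274 and 409, and Plin1 read 1510, 286 and 42. Ucp1, which defines brown fat, read 156, 31 and 35. The brown fat sums of 16300, 24532 and 27521 come mostly from Cidea (6292, 15428 and 18241) and Cox8b (6921, 7603 and 7260). Of 9 liver markers 2 passed the filter, with sums of 8612, 2371 and 3468, and 7 of 9 read higher than array b. Of 6 skeletal muscle markers 1 passed the filter, and of 6 white blood cell markers 5, the latter with sums of 10255, 16616 and 12539. No listed marker was at 0. The part of these cells in the values above was not tested.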

How the data were processed

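Each sample was hybridised to 1 short oligonucleotide array. The authors deposited 1 linear intensity per probe set and array, already summarised. The mean after trimming 2% at each end was 2500.0 on all 3 arrays, so scaling to a common mean is likely, but the software is not given in the sources used here. Such scaling hides a difference in total RNA.

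The 57 control probe sets were left out, and log2(intensity + 16) was used. Genes were named from the platform annotation (20826 of 31042 probe sets had 1 symbol, 436 several and 9780 none). Limma 3.58.1 in R 4.3.3 (lmFit, eBayes with an intensity trend, two-sided, Benjamini-Hochberg over all 15521 probe sets kept) compared 7 days with 1 day on the 3 arrays. The lone 7-day sample was taken to have the same spread as the 1-day pair. Differences from 1-day array b, medians and counts carry no test. The steps were tested on simulated data. The simulated arrays all had the same small spread, unlike the 1-day pair here. That test therefore cannot tell whether limma could call a change in these data. The members, lists and named genes (fixed genes, the highest and lowest of each subgroup, and those at least 0.5 outside both 1-day arrays) were chosen with earlier results of these data known. The alternatives were pseudocounts of 1 and 64, quantile normalisation, median centring, other filters, limma without a trend and robust, all probe sets averaged, updated symbols, leaving out each 1-day array, and a loess trend removed.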

Additional observations from a re-analysis of the deposited data

How the results depend on the processing

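The number of arrays limits every value, and no result here separates the length of exposure from differences between samples. Limma called 0 probe sets in the main setting and in each of the 9 others run, with 1 to 70 at an unadjusted p under 0.05. No paired analysis was possible because the groups share 1 replicate letter. The loess trend removal was chosen after seeing the data. Of 203 recomputed medians, counts and limma totals, 180 stayed within the spread of the 1-day pair or within 1.5 times the main count. Some of these could not move, since updated symbols gave the same probe sets and a pseudocount cannot change which array reads higher. The allowed spread was also wide, such as 0.58 for mitochondrial beta-oxidation, whose median against array b was 0.12. The 180 are therefore a weak measure of stability. The recomputed values that moved follow, with a few that did not, which are named as such.

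Against the mean of both 1-day arrays, median centring gave medians of 0.81 for all members (0.30 as scaled), 0.33 for the carnitine shuttle (-0.19), 1.37 for peroxisomal beta-oxidation (0.85), 0.85 for acyl-CoA synthetases (0.33), 0.54 for de novo synthesis (0.03), 1.06 for elongation and desaturation (0.55) and 0.62 for peroxins (0.11). By construction it lowers 1-day array a, whose median was highest. Quantile normalisation gave 1.36 for peroxisomal beta-oxidation and 0.38 for peroxins, and the loess removal 0.33 for peroxins. De novo synthesis moved to 0.23 with filtered members and 0.44 with all probe sets averaged. Leaving out 1-day array a or b gave -0.33 and 0.81 for acyl-CoA synthetases. The same step stayed within the allowed spread for the carnitine shuttle (-0.06 and -0.36), de novo synthesis (0.16 and -0.11) and all members (0.11 and 0.33).

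Against 1-day array b, peroxisomal beta-oxidation moved from 0.63 to 0.20 (quantile), 0.23 (loess) and -0.18 (filtered, 1 gene). Members at least 1.5-fold higher numbered 9, and 5 with quantile normalisation, 3 with median centring and 4 with the filter. Those at least 1.5-fold lower numbered 6, and 10 with median centring and 2 with the filter. Members below both 1-day arrays numbered 12, and 4 with median centring. Of 256 recomputed counts for single subgroups, 41 moved by more than 1.5 times, and of 325 values of single members 22 moved by more than the spread of the 1-day pair. With all probe sets averaged, the median of acyl-CoA synthetases against array b was 0.09 (-0.33 with 1 probe set a gene), which is within the allowed spread though the sign changed. The other scalings of the rule on the gap between the 1-day arrays were also chosen after seeing the data. Updated symbols gave the same 87 probe sets.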
